A study of Homo sapiens with 6 samples.

Results

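Ligands and receptors of the tumor necrosis factor (TNF) superfamily were examined in RNA-seq of J82 cells, an established human bladder cancer line, with and without disruption of FOXC1. Members were the protein-coding genes whose symbol starts with TNFSF or TNFRSF, plus TNF, LTA, LTB, LTBR, FASLG, FAS, CD70, CD27, CD40, CD40LG, NGFR, EDA, EDAR and EDA2R, which gave 47 of the 57820 genes in the table. There were 19 ligands and 28 receptors. By their genotype labels 3 libraries were control and 3 came from cells knocked out for FOXC1 (KO), all from the same line grown in the same serum-containing medium. The KO cells had received the lentiCRISPRv2 vector against FOXC1, a forkhead transcription factor gene, and the study's methods describe vector control cells and selection with puromycin. The methods speak of knockout clones, but how many there were and whether the libraries came from separate cultures were not stated, so p-values measure the spread between these libraries only.

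TNF superfamily ligands are mostly trimeric membrane proteins that can be shed, and each binds 1 or a few receptors on the same or another cell. Receptors with a death domain recruit FADD or TRADD and can lead to caspase activation, other receptors bind TRAF adaptors and feed the NF-kappaB and kinase pathways, and decoy receptors bind ligand without passing a signal on. In carcinoma cells the family is best known for the TRAIL and TNF receptors and for ligands that engage T cells, such as CD70 and the 4-1BB ligand.

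The control libraries held 22900531 to 25013311 counts and the KO libraries 18408134 to 25350908. Levels are given in CPM, the counts of a gene scaled to library size after TMM normalization, as mean ± SD of 3 libraries. Calls required an edgeR adjusted p under 0.05 and a change of more than 1.3-fold. Log2 fold changes are KO minus control throughout. FOXC1 RNA was not lower in the libraries labelled KO (18.2 ± 1.21 CPM in control and 22.5 ± 1.5 in KO, log2 fold change 0.30, edgeR adjusted p = 0.0127), so the transcript is no check of these labels. The labels name a western blot as the check of the knockout. KO refers to the libraries so labelled. Of the urothelial luminal markers, UPK3A was at 0 and UPK1A, UPK1B, UPK2 and KRT20 at 5 counts or fewer in every library. Only GATA3 and PPARG of these markers passed the filter on low counts, and both were called lower in KO. The summed level of the 7 luminal markers was 158 to 161 CPM in control and 116 to 119 in KO. The urothelial origin named in the labels was not tested by these values. The 6 simple epithelial markers summed to 3020 to 3850 CPM in control and 2370 to 2650 in KO. Of the simple epithelial markers, 4 were called lower, KRT7 was not called and CDH1, with 0 to 3 counts, was not tested. The 4 urothelial basal markers summed to 0.0393 to 0.0892 CPM in control and 0.213 to 0.437 in KO. The 4 mesenchymal markers summed to 1690 to 1830 CPM in control and 1720 to 1990 in KO. Of these 4, ZEB1 was called higher and 3 were not called. The 8 T and B lymphocyte markers were at 0 apart from CD79A at 1 or 2 counts. The 6 myeloid markers summed to 5 to 5.74 CPM in control and 12.0 to 13.3 in KO through CSF1R and CD14, both called higher. PTPRC, which marks all leukocytes, had 3 to 9 counts and LYZ 0 or 1. Of the endothelial markers, CDH5 was called higher, at a mean of 0.0131 CPM in control and 0.933 in KO. Its counts were 0, 0 and 1 in control and 18, 18 and 26 in KO, so it passed the filter on low counts through its KO libraries. VWF had 3 to 7 counts. The part of these markers in the results was not tested.

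Of the 47 members, 24 passed the filter on low counts, 8 ligands and 16 receptors. The KO group was higher for 6 of them and lower for 3, or 25% and 12.5%, where 7.57% of all 15647 tested genes were called higher and 8.39% lower. With library size as the only scaling the split was 6 higher and 5 lower. DESeq2 called 5 members higher and 2 lower, beside 6.07% and 5.78% of the genes it tested, and without the fold threshold edgeR gave 8 higher and 7 lower, beside 15.2% and 14.3% of all tested genes. The median log2 fold change was 0.19 over the 24 tested members and -0.001 over all tested genes. CD70, TNFSF9, TNFSF15, TNFRSF11B, TNFRSF9 and TNFRSF19 rose, and TNFRSF11A, TNFSF13B and TNFRSF14 fell. TNFSF15 was short of the cutoff of 0.419 CPM in at least 1 control library and so passed the filter through its KO libraries, and TNFSF4 was short of it in at least 1 KO library. The plot of levels by library shows every tested member.

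**Figure D1:**
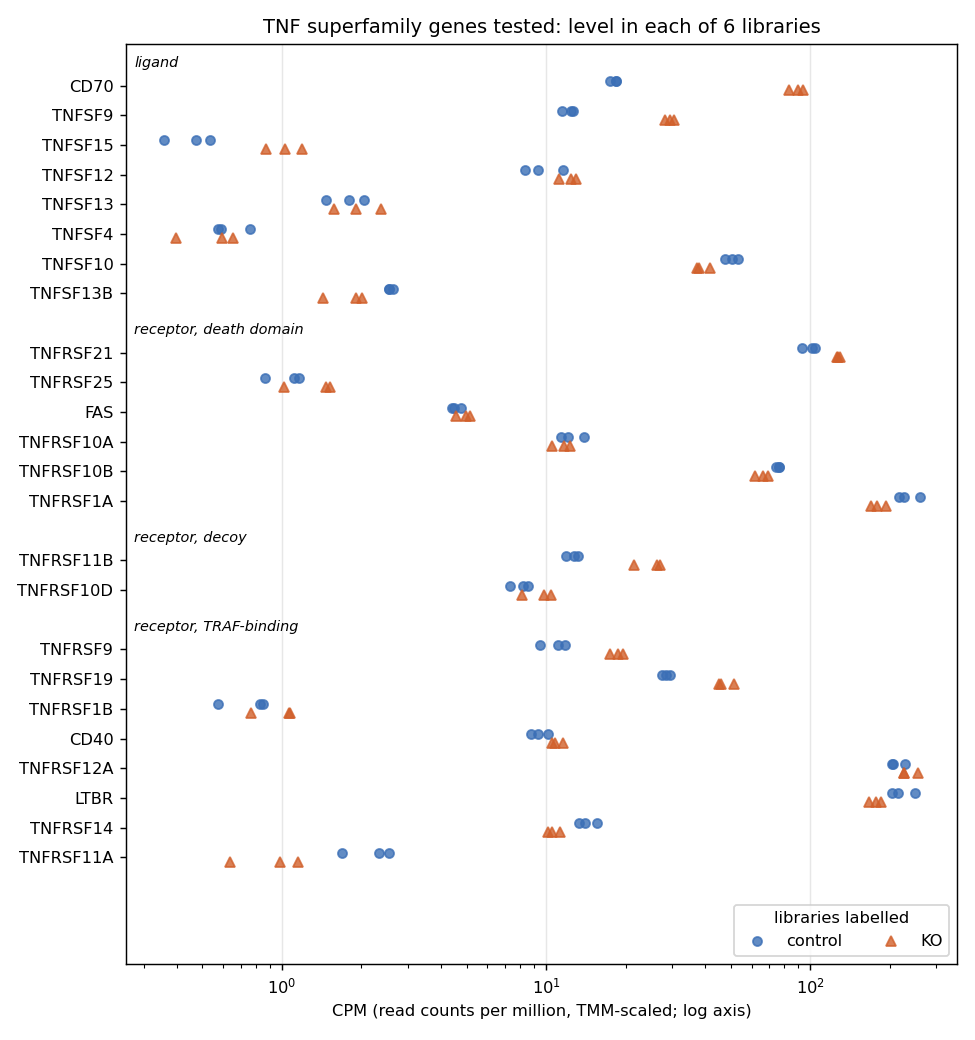
Level of each tested member in each library, in CPM on a log axis, grouped by role; circles are control libraries and triangles KO libraries. CD70 stands at 17.4 to 18.4 CPM in control and 83.2 to 93.9 in KO, while the receptors TNFRSF12A, TNFRSF1A and LTBR are at 167 CPM or more in every library.

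The 23 members that did not pass the filter were near the limit of detection. LTA, CD40LG, EDAR, TNFRSF6B, TNFRSF4, TNFRSF13B and the TNFSF12-TNFSF13 readthrough gene had 0 counts in every library. TNF itself, the founding cytokine of the family, had 0 counts in the 3 control libraries and 0, 2 and 2 in the KO libraries, and FASLG, the Fas ligand, 0 in all but KO replicate 1, which had 2. LTB, TNFSF11 (RANKL), TNFSF8, EDA, EDA2R, TNFRSF18 and TNFRSF17 also stayed at 3 counts or fewer. The other 7 reached slightly higher counts, namely TNFSF18 (2 to 11), TNFSF14 (2 to 4), NGFR (1 to 6), TNFRSF10C (2 to 13), CD27 (1 to 6), TNFRSF13C (1 to 4) and TNFRSF8 (0 to 5). These genes were not tested. TNFRSF6B and the TNFSF12-TNFSF13 gene share 100% of their exon bases with another gene on the same strand, so their zeros depend on how the authors' counting treated shared reads.

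Among the ligands, CD70 changed most. CD70 (ENSG00000125726.6, chromosome 19, 6583194 to 6604114, minus strand) encodes the membrane ligand of CD27. It stood at 18.4, 18.4 and 17.4 CPM in the control libraries and at 83.2, 93.9 and 90.0 in the KO libraries. All KO libraries were above all control libraries by a wide gap, with a log2 fold change of 2.30 (SE 0.0821, edgeR adjusted p = 1.05e-18), or 4.94-fold. Per kilobase of exon, a scale on which genes can be compared, CD70 went from 11.8 to 58.2 CPM per kilobase and from rank 7 to rank 2 among the members. Its receptor CD27 had 5, 5 and 6 counts in control and 1, 5 and 2 in KO. In CPM all KO libraries were below all control libraries (0.221 ± 0.0156 in control, 0.113 ± 0.0759 in KO), but at these counts CD27 was not tested, and 42.5% of its exon bases lie opposite other genes, CD27-AS1 among them.

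TNFSF9 (ENSG00000125657.3, chromosome 19, 6531037 to 6535935, plus strand), the 4-1BB ligand, lies 47.3 kb from CD70. It measured 12.6, 11.5 and 12.4 CPM in control and 30.6, 29.5 and 28.2 in KO. The groups did not overlap, and the rise was 2.42-fold (log2 fold change 1.28, SE 0.0907, edgeR adjusted p = 4.92e-12).

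TNFSF9 was joined by its receptor. TNFRSF9 (4-1BB, also CD137; ENSG00000049249.4, chromosome 1, 7975931 to 8003225, minus strand) is a TRAF-binding costimulatory receptor known from activated T cells. It had 9.46, 11.8 and 11.1 CPM in control and 18.8, 17.4 and 19.5 in KO. Again the groups were apart, with a 1.72-fold rise (log2 fold change 0.78, SE 0.102, edgeR adjusted p = 6.82e-07). Of 34 textbook ligand and receptor pairs within the family, 7 had both partners tested, and TNFSF9 with TNFRSF9 was the 1 pair with both called in the same direction. In the fit on all libraries no pair had its partners called in opposite directions. That count depends on TNFSF10, which was not called at a log2 fold change of -0.375, while TNFRSF11B of the same pair was called higher (0.98). TNFSF10 was called lower under 6 of 13 alternative settings, and TNFRSF11B was called higher under all 13.

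Upstream sequences of this pair are shown because ligand and receptor rose together. Beside them is that of TNFRSF14, a member that fell and whose window holds the match marked below. They are the 250 bases before the RefSeq start on GRCh38.p14, read 5′ to 3′ on the gene's strand, and the capitals mark a match to the kappa-B consensus, the element that NF-kappaB dimers bind.
TNFRSF9 chr1:7940840-7941089, minus strand: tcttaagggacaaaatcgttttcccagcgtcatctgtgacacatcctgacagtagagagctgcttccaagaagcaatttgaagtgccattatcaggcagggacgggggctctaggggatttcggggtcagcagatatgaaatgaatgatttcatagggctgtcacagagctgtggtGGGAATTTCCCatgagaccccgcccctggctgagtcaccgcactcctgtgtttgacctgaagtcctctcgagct
TNFSF9 chr19:6530776-6531025, plus strand: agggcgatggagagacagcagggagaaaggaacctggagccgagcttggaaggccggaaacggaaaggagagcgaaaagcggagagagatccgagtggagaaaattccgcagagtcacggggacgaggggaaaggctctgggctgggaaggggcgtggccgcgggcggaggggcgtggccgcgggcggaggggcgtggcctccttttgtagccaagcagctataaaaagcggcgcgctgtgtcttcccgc
TNFRSF14 chr1:2556121-2556370, plus strand: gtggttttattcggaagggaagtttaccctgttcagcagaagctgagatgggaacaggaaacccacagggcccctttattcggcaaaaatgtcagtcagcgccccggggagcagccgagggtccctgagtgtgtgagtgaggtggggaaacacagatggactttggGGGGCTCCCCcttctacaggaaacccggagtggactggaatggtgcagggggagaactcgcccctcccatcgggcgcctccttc
The match of TNFRSF9 begins 74 bases before the start and that of TNFRSF14 84 bases before it, and the TNFSF9 window holds none. The other members called lower, TNFRSF11A and TNFSF13B, had no match in their windows. RefSeq gave 39 windows for 29 members, and windows of 1 gene can overlap. A kappa-B match was found in 9 of the 39 windows, of 7 members, and in 5.21% of the 35116 RefSeq windows of this length, searched on both strands. By call, 1 of 5 windows of members called higher held a match, 1 of 4 of members called lower, 2 of 12 of members not called and 5 of 18 of members not tested. CD70 and TNFRSF11B had no window and were not searched, so the 5 windows of members called higher came from 4 members. The forkhead core TAAACA, searched likewise, was in 4 of the 39 windows, all of members that were not tested, and in 11% of all windows. These are matches of letters and say nothing of binding.

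TNFSF15 (TL1A, ENSG00000181634.7, chromosome 9, 117546932 to 117568319, minus strand), the ligand of the death receptor TNFRSF25, was measured at low counts. The control libraries had 8, 13 and 12 counts and the KO libraries 16, 26 and 28, or 0.454 ± 0.0894 and 1.03 ± 0.16 CPM. The groups did not overlap and the change was 2.27-fold (log2 fold change 1.18, SE 0.301, edgeR adjusted p = 0.00344), but with DESeq2 the adjusted p was 0.05 and TNFSF15 was not called. TNFRSF25 was at 1.04 CPM in control and 1.34 in KO (log2 fold change 0.35, edgeR adjusted p = 0.301).

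One ligand was called lower in the fit on all libraries. TNFSF13B (BAFF, ENSG00000102524.7, chromosome 13, 108903588 to 108960832, plus strand), a B cell survival factor, had 2.54, 2.54 and 2.64 CPM in control and 2.01, 1.43 and 1.91 in KO. The control libraries lay close together and above all KO libraries. Its log2 fold change of -0.54 (SE 0.186, edgeR adjusted p = 0.0269) was lost with DESeq2 (adjusted p = 0.161), with counts thinned to the smallest library (0.0638), and without control replicate 2 (0.0501), control replicate 3 (0.0767) or KO replicate 2 (0.162). Its receptors TNFRSF13B, TNFRSF13C and TNFRSF17 were not tested.

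TNFSF10 (TRAIL), which triggers apoptosis through death receptors, was the most abundant ligand per kilobase in control. It stood at 50.7, 53.4 and 47.5 CPM in control and 37.8, 37.3 and 41.7 in KO. The groups were apart, but the log2 fold change of -0.38 (SE 0.0799, edgeR adjusted p = 0.000607) fell just short of the 1.3-fold threshold. TNFSF10 passed it, and so was called lower, under 6 of the 13 alternative settings (library size alone, a mean of at least 50 counts, thinning, and without control replicate 1, control replicate 3 or KO replicate 3), at -0.44 to -0.38. Per kilobase the order of the ligands was therefore TNFSF10 (14.7), CD70 (11.8) and TNFSF9 (7.44) in control and CD70 (58.2), TNFSF9 (18.0) and TNFSF10 (11.3) in KO, each in CPM per kilobase. The remaining ligands were TNFSF12 (TWEAK; 9.75 ± 1.65 CPM in control, 12.2 ± 0.892 in KO, groups overlapping, edgeR adjusted p = 0.0312 at a log2 fold change of 0.33), TNFSF13 (APRIL; log2 fold change 0.14) and TNFSF4 (the OX40 ligand; -0.24), none of them called. TNFSF12 was called higher without control replicate 1 (0.46) or KO replicate 3 (0.38). Of the exon bases of TNFSF13, 55.5% are shared with another gene, and of those of TNFSF12 12.1%.

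No death domain receptor was called in the fit on all libraries. Of the 6 tested with edgeR, 0 passed both thresholds in either direction, beside 16% of all tested genes. With 6 genes, 0 calls is near that share. At an unadjusted p under 0.05 in edgeR, 1 was higher and 2 were lower, beside 3190 and 3031 of all 15647 tested genes. These were TNFRSF21 above and TNFRSF1A and TNFRSF10B below, and their edgeR adjusted p was under 0.05 as well. DESeq2 also called 0 of the 6 receptors. Under other settings 2 of them, TNFRSF1A and TNFRSF21, gained a call. TNFRSF1A (TNFR1, chromosome 12, 6437923 to 6451280, minus strand), the main receptor of TNF, measured 260, 217 and 227 CPM in control and 170, 194 and 179 in KO. All KO libraries were below all control libraries, and the log2 fold change of -0.37 (SE 0.0755, edgeR adjusted p = 0.000346) stopped short of 1.3-fold. It was called lower under 6 of 13 alternatives (library size alone, a mean of at least 50 counts, thinning, and without control replicate 2, control replicate 3 or KO replicate 2), at -0.43 to -0.38. TNFRSF21 (death receptor 6) moved the other way at a like size, from 104, 92.8 and 102 CPM to 127, 128 and 130, without overlap (log2 fold change 0.37, SE 0.0707, edgeR adjusted p = 0.000182), and was called higher without control replicate 1 or control replicate 3 (0.39 in both).

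The TRAIL death receptors and FAS, the receptor of the Fas ligand, stayed under the fold threshold. TNFRSF10B (DR5) had 76.0, 76.3 and 74.4 CPM in control and 66.5, 69.5 and 61.8 in KO. The KO libraries were all lower, by a log2 fold change of -0.20 (95% interval -0.35 to -0.05, edgeR adjusted p = 0.0428). For TNFRSF10A (DR4) the interval was -0.33 to 0.10 and for FAS -0.16 to 0.38, with groups that overlapped in both. FAS shares 25.7% of its exon bases with a gene on the opposite strand.

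Of the decoy receptors, TNFRSF11B rose. TNFRSF11B (osteoprotegerin, ENSG00000164761.4, chromosome 8, 119935796 to 119964124, minus strand) is a secreted trap for RANKL that also binds TRAIL. It had 12.8, 11.9 and 13.2 CPM in control and 27.0, 21.6 and 26.4 in KO. The lowest KO library was still above the highest control library, and the rise was 1.97-fold (log2 fold change 0.98, SE 0.0995, edgeR adjusted p = 6.96e-09). TNFRSF10D, a TRAIL decoy, was at 8.03 CPM in control and 9.44 in KO (log2 fold change 0.23, 95% interval -0.01 to 0.47, edgeR adjusted p = 0.139).

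RANK, the signalling receptor of RANKL, moved opposite to its decoy. TNFRSF11A (RANK, ENSG00000141655.11, chromosome 18, 59992520 to 60058521, plus strand) activates NF-kappaB through TRAF adaptors and is known from osteoclasts. Its counts were 57, 57 and 43 in control and 18, 16 and 27 in KO, or 2.19 ± 0.444 and 0.921 ± 0.262 CPM. The groups did not overlap, and TNFRSF11A was 2.38-fold lower (log2 fold change -1.25, SE 0.241, edgeR adjusted p = 0.000186). Their ligand TNFSF11 was at 3 counts or fewer in every library.

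TNFRSF19 (TROY, ENSG00000127863.11, chromosome 13, 24144509 to 24250243, plus strand), a receptor known from stem cells of the intestine, also rose. It had 27.6, 28.4 and 29.5 CPM in control and 51.5, 45.0 and 45.8 in KO. The groups were well apart at 1.66-fold (log2 fold change 0.73, SE 0.0817, edgeR adjusted p = 4.46e-08).

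TNFRSF14 (HVEM, ENSG00000157873.13, chromosome 1, 2487078 to 2496821, plus strand), the receptor of LIGHT that also binds BTLA on lymphocytes, was lower. It stood at 15.6, 14.1 and 13.3 CPM in control and 10.5, 11.3 and 10.2 in KO. The groups did not overlap, with a log2 fold change of -0.42 (SE 0.102, edgeR adjusted p = 0.00199). Without control replicate 1 it was -0.37 and short of 1.3-fold. The antisense gene TNFRSF14-AS1, which covers 13.3% of the exon bases of TNFRSF14, was called lower as well (log2 fold change -0.97), and as the strand setting of the counting was not stated, reads from both cannot be told apart.

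The 5 members of highest level per kilobase in control, TNFRSF12A, TNFRSF1A, LTBR, TNFRSF21 and TNFRSF10B, were not called. TNFRSF12A (the TWEAK receptor Fn14) held the first rank per kilobase in both groups, with 228, 206 and 204 CPM in control and 227, 257 and 227 in KO. The groups overlapped (log2 fold change 0.16, 95% interval 0.01 to 0.31, edgeR adjusted p = 0.0996). LTBR (chromosome 12, 6484211 to 6500737, plus strand), the lymphotoxin-beta receptor and an activator of the alternative NF-kappaB pathway, had 249, 204 and 216 CPM in control and 177, 185 and 167 in KO. The KO libraries were all lower, at a log2 fold change of -0.34 (SE 0.0753, edgeR adjusted p = 0.000879) that missed 1.3-fold, and LTBR was called lower without control replicate 2 (-0.41). CD40, a costimulatory receptor, had 10.2, 9.31 and 8.77 CPM in control and 10.8, 11.6 and 10.5 in KO, without overlap (log2 fold change 0.22, edgeR adjusted p = 0.117). TNFRSF1B (TNFR2) was near the filter cutoff, at 0.749 CPM in control and 0.965 in KO.

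Counted by overlap, 8 members had all KO libraries above all control libraries and 7 had them below, of 24, where 20.5% and 20.8% of all tested genes did. Of these 15, 6 were not called, namely TNFSF10, TNFRSF1A, TNFRSF10B and LTBR below and TNFRSF21 and CD40 above. The 9 called members and the 15 others are shown with their intervals in the plot of fold changes by role. In these bulk libraries, fewer cells that express a gene and less RNA per cell cannot be told apart.

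**Figure D2:**
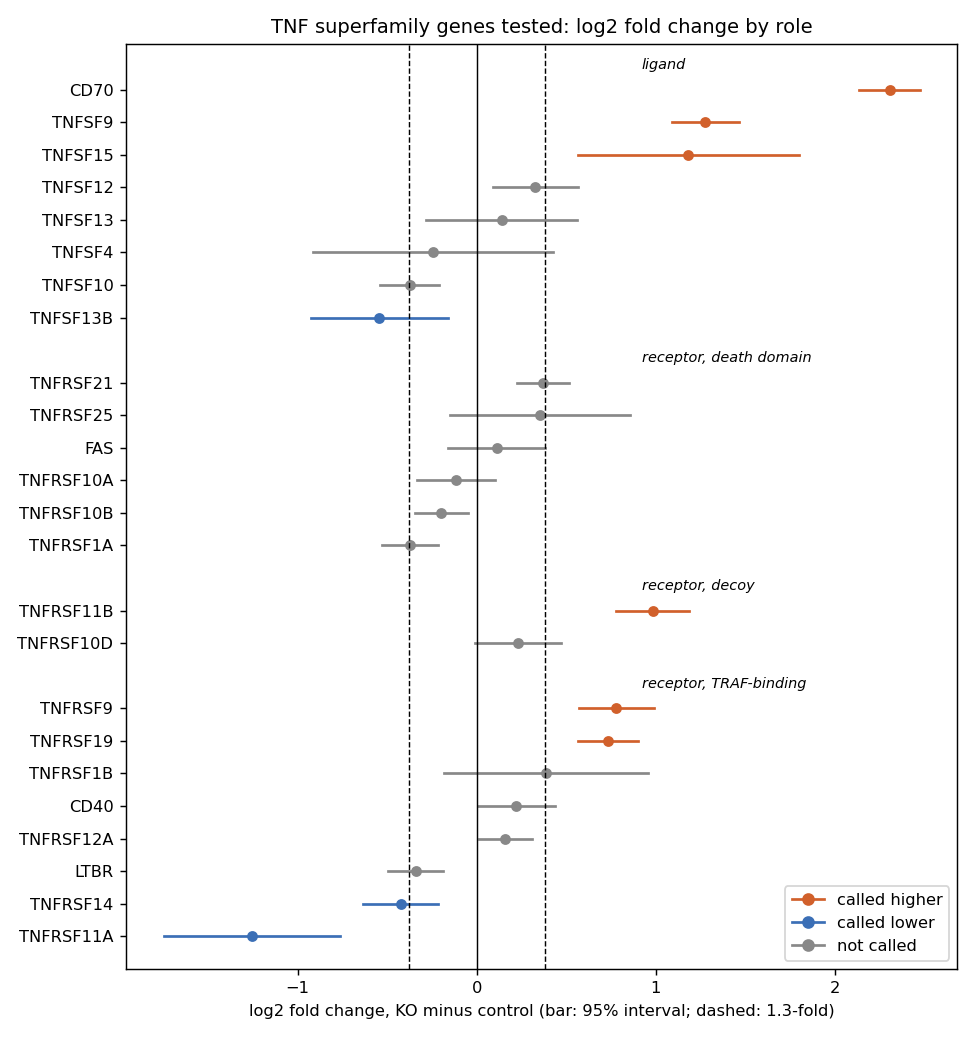
Log2 fold change (KO minus control) of the 24 tested members by role, with 95% intervals from edgeR; dashed lines mark 1.3-fold and color marks the call. CD70 lies farthest to the right at 2.30 and TNFRSF11A farthest to the left at -1.25. Of the 6 tested death domain receptors, 0 are called in the fit on all libraries, beside 16% of all tested genes.

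The positions of the members were compared with those of their neighbors, and the neighborhoods described here were chosen after their values were seen. TNFRSF1A and LTBR lie 32.9 kb apart on chromosome 12. Within 100 kb of either, 7 other genes were tested, and all 7 had log2 fold changes below zero, from -1.77 to -0.34 with a median of -0.69. Of these, 6 were called lower, where 8.39% of all tested genes were: PLEKHG6 (-1.77), CD9 (-1.11), SCNN1A (-1.11), ENSG00000256433 (-0.69), CD27-AS1 (-0.59) and TAPBPL (-0.39). VAMP1 (-0.34) was not. The exons of SCNN1A overlap 6.86% of those of LTBR on the opposite strand. On chromosome 19, both tested neighbors of CD70 rose, TNFSF9 and the complement gene C3 (log2 fold change 1.22, 73.6 kb away), while SLC25A23, 65.8 kb from TNFSF9, did not pass (0.13). The neighbors of TNFRSF9 were divided, with ERRFI1 higher (0.86), PER3 lower (-0.54) and PARK7 not called (-0.30). Among the 13 tested neighbors of TNFSF12, 4 were called higher and 0 lower, beside 7.57% and 8.39% of all tested genes.

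**Figure D3:**
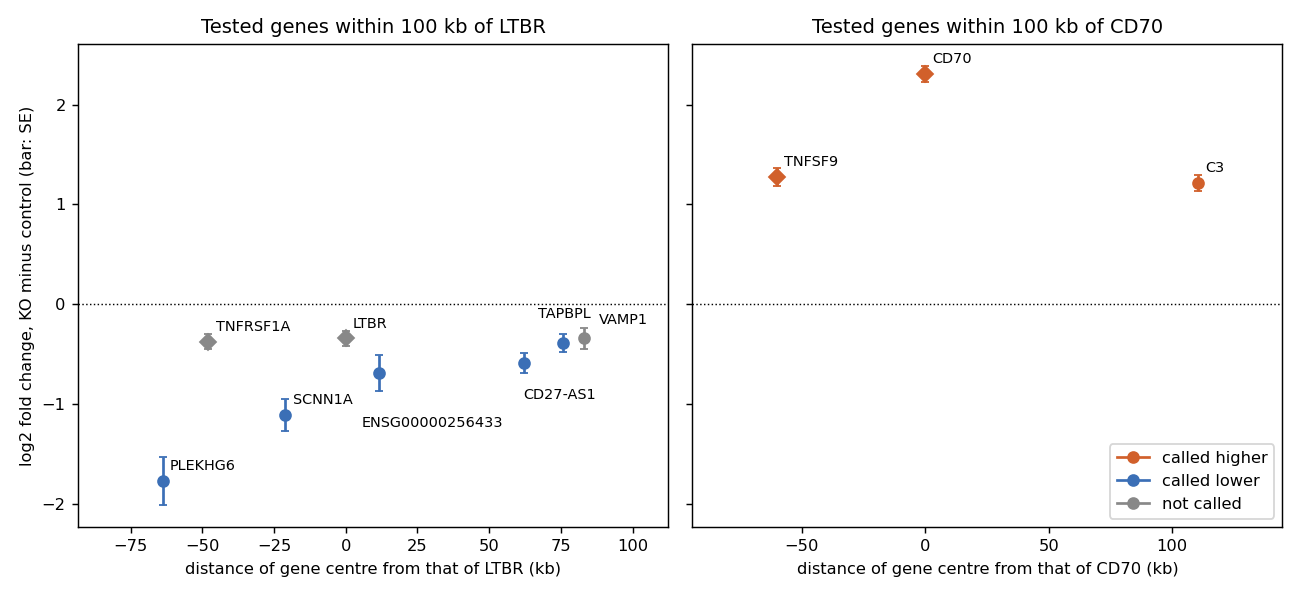
Log2 fold change (bars, SE) of tested genes against the distance of their centers from the center of LTBR or CD70, in kb; diamonds are superfamily members and circles other genes, and genes were taken where their ends lie within 100 kb. All genes around LTBR are below zero, from -1.77 for PLEKHG6 to -0.34, and TNFSF9 and C3 on either side of CD70 are above zero.

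The signalling pathway of the receptors was described by lists of its known genes. Of 88 listed genes 74 were tested, and edgeR called 23 higher and 2 lower (31.1% and 2.7%, beside 7.57% and 8.39% of all tested genes), with a median log2 fold change of 0.11. Among 33 tested adaptors, ubiquitin enzymes and caspases, 6 rose (18.2%, beside 7.57% of all tested genes). They were TRAF1 (log2 fold change 0.60) and TRAF3 (0.58), both TRAF adaptors, TNIP1 (0.59) and TNFAIP3 (A20; 0.39), both inhibitors of NF-kappaB signalling, TRAF5 (0.41) and the ubiquitin ligase BIRC2 (0.38). None fell by the edgeR call or by DESeq2 (0). At an edgeR adjusted p under 0.05 with no fold threshold, 9 were higher and 3 lower, beside 15.2% and 14.3% of all tested genes. At an unadjusted p under 0.05 in edgeR, 13 were higher and 3 lower, beside 3190 and 3031 of all 15647 tested genes. TRAF1 had 4.37, 5.12 and 4.96 CPM in control and 8.27, 7.66 and 6.17 in KO, and TRAF3 rose from 40.8 ± 1.31 to 60.9 ± 1.05 CPM (edgeR adjusted p = 0.000812 and 6.44e-07).

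Among 13 tested NF-kappaB subunits, IKK and IkB genes, 3 rose (23.1%, beside 7.57%): RELB (0.69), a subunit of the alternative pathway, and the IkB genes NFKBIZ (0.50) and NFKBIE (0.43). RELB had 14.1, 12.1 and 14 CPM in control and 21.7, 22.2 and 20.8 in KO, without overlap (edgeR adjusted p = 1.73e-06). The count of genes lower was 0 with edgeR, with DESeq2 and at an unadjusted p under 0.05 in edgeR. Of all 15647 tested genes, edgeR called 8.39% lower, and 3031 were lower at that unadjusted p. The 5 processing proteases, which shed ligands and receptors, gave 0 calls with either tool and 0 at an unadjusted p under 0.05. As edgeR called 16% of all tested genes in either direction, 0 calls of 5 is near that share. At the unadjusted p, 3190 of all tested genes were higher and 3031 lower. ADAM17 had a log2 fold change of 0.08 (95% interval -0.07 to 0.24). Of 5 other partners tested, 2 rose (40%, beside 7.57%), the receptor RELT (0.41) and NTRK2 (0.48), a neurotrophin receptor that was listed as a partner of NGFR.

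The list of genes known to respond to TNF and NF-kappaB had the highest share of calls, with 12 of 18 tested genes higher and 2 lower (66.7% and 11.1%, beside 7.57% and 8.39% of all tested genes) and a median log2 fold change of 0.65. IL1B, which encodes the cytokine interleukin-1 beta, had 1.52, 1.60 and 1.57 CPM in control and 8.21, 9.13 and 9.02 in KO. It was 5.62-fold higher (log2 fold change 2.49, SE 0.145, edgeR adjusted p = 6.66e-14). The neutrophil chemokines CXCL8 (4.14 ± 0.726 to 14.1 ± 1.62 CPM, log2 fold change 1.76) and CXCL1 (2.19 ± 0.117 to 6.67 ± 0.541 CPM, 1.60) rose with the cytokine IL6 (32.5 ± 1.98 to 63.2 ± 3.29 CPM, 0.96), the early response gene IER3 (1.37) and the protease PLAU (0.67), with edgeR adjusted p from 6.66e-14 to 8.52e-09 over these 6 genes. The 2 genes that fell, named after their values were seen, were the adhesion molecule VCAM1 (8.92 to 5.63 CPM, log2 fold change -0.68) and the interferon-induced chemokine CXCL10 (1.96 to 1.09 CPM, -0.83). TNF and LTA, ligands known to induce such genes, were at 2 counts or fewer in every library.

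**Figure D4:**
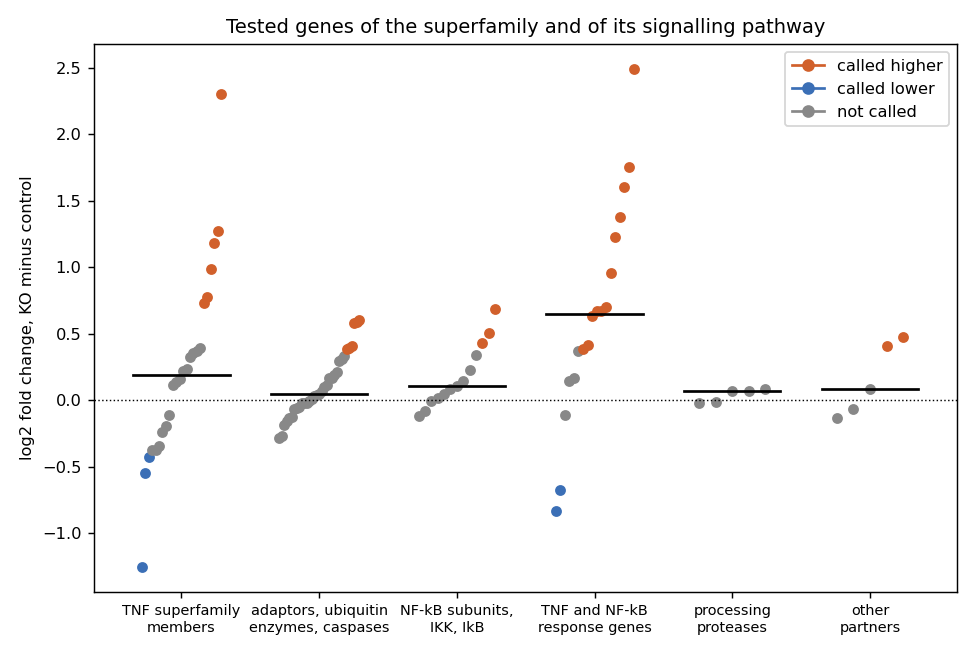
Log2 fold change (KO minus control) of each tested gene of the superfamily and of 5 pathway lists, sorted within a list; lines are medians and color marks the edgeR call. The median is 0.65 for the response genes, 0.19 for the superfamily and near zero for the adaptors (0.05).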

How the data were processed

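RNA-seq libraries of polyadenylated RNA from J82 cells (3 control, 3 FOXC1 KO) had been sequenced as paired reads. The authors aligned them to hg19 with STAR and deposited raw counts per gene from featureCounts (Subread), with GENCODE genes. Tool versions, the strand setting and the handling of reads with several positions were not given in the sources used here. Replicates were not pooled, and 0 columns belonged to other samples.

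Genes were named and placed with GENCODE for GRCh37 (the assembly of hg19), where 55538 identifiers (96.05%) matched. The release used for naming was later than that of the counts. By it IKBKG, SOD2, CCL5 and PECAM1 found no match, so they are missing from their lists. Whether the counts hold them under another identifier was not tested. In R 4.3.3, edgeR 4.0.16 was run on the whole table (filterByExpr, TMM, robust quasi-likelihood F test, group as the only term), leaving 15647 genes. A gene was called at a Benjamini-Hochberg adjusted p under 0.05 over all tested genes and a fold change over 1.3, the thresholds of the study, which used DESeq2 (here version 1.42.0, as an alternative). The procedure was tested on simulated counts. CPM were computed from the deposited counts, and levels per kilobase used the exon union of the annotation.

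Named were all called members, the 5 uncalled tested members of highest level per kilobase in control, members without overlap between groups, and per pathway list at most 6 called genes by p. The members and lists were chosen with earlier results of these data known, and the lists are no independent evidence. Alternatives were RLE size factors, library size alone, other filters, thinning, the replicate number as a block, each library left out, and other fold thresholds. Intervals are 95%. Counts of 3 or fewer were taken as the floor, for counting error only. RefSeq promoter windows were searched for the forkhead core and the kappa-B consensus.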

Additional observations from a re-analysis of the deposited data

How the results depend on the processing

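CD70, TNFSF9, TNFRSF11B, TNFRSF19 and TNFRSF9 were called under all 13 alternative settings, and TNFRSF11A under the 12 settings in which it was tested. Over all member values, 281 stayed on the same side of zero and of the thresholds, 17 passed them only under an alternative (6 each of TNFSF10 and TNFRSF1A, 2 each of TNFSF12 and TNFRSF21, 1 of LTBR) and 7 no longer did. The log2 fold change of TNFSF13 turned to -0.05 without KO replicate 2, the lowest of -0.05 to 0.28 with 1 library left out. Calls were sensitive to the fold threshold, since several members lie close to 1.3-fold. With no fold threshold, 7 members were lower (2 ligands, 5 receptors), 2372 and 2233 of all genes were higher and lower, and 5 pathway genes were lower, 3 of them adaptors. Over 2-fold, 3 members were higher (0 receptors) and 1 lower (0 ligands, 1 receptor), 316 and 321 of all genes were higher and lower, and 5 pathway genes were higher and 0 lower, all 5 in the response list, with 0 higher in the adaptor, NF-kappaB and partner lists and 0 lower in the response list. Library size alone gave 5 members lower (2 ligands). DESeq2 gave 0 ligands lower, a mean of at least 50 counts 2, and under that filter 1 pathway gene, of the response list, was lower. Thinning left 1 partner higher.

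Leaving out 1 library gave 3 to 5 members lower (5 without control replicate 2), 0 to 2 ligands lower (0 without control replicate 2 or KO replicate 2, 2 without control replicate 1 or KO replicate 3) and 1 to 5 receptors lower (1 without control replicate 1, 5 without control replicate 2, 4 without KO replicate 2). It gave 3 to 7 adaptors higher (3 without control replicate 1), 2 to 4 NF-kappaB genes higher and 1 to 2 partners higher (1 without control replicate 2 or KO replicate 2). The causes were not tested. The values gave no sign that replicate numbers pair the samples. Correlations of deviations were -0.05, -0.18 and 0.10, and 0 of 6 libraries correlated best with their own number. With 3 libraries per group these values cannot exclude a pairing. With the replicate block 6 members were higher and 3 lower, and 1200 and 1351 of all genes. The low counts of the 23 untested members limit what can be said of them.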
